A study of Mus musculus with 4 samples.

Results

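Cd28, Icos, Pdcd1, Tnfrsf4 and Tnfrsf9 encode receptors through which a T cell receives signals beside that of its antigen receptor. They were followed through every probe set that carries one of these symbols in either of the authors' deposited fold change tables, which gave 8 probe sets for 5 genes out of 45037 non-control probe sets, of which 660 (507 genes) carry a symbol. Cd28 has 3 of them, Tnfrsf9 has 2, and Icos, Pdcd1 and Tnfrsf4 have 1 each. Probe sets without a symbol were not assigned to any gene, so other probe sets of these genes may exist on the array and were not analysed here.

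The 4 groups were wild-type CD4 T cells, Foxo1-deficient CD4 T cells, wild-type CD8 T cells and Foxo1-deficient CD8 T cells, taken at an age of 6 to 8 weeks from spleen and lymph nodes. Foxo1 is a forkhead transcription factor, and the series was set up to look for its target genes in T cells. Each group is 1 Affymetrix array with no replicate, so no spread between animals or preparations could be measured. How Foxo1 was removed, in which cells, how the T cells were purified, and the strain and number of mice behind an array are not given in the sources used here. For bulk RNA of this kind, fewer cells expressing a gene and less RNA per cell cannot be told apart.

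On naive T cells the principal costimulatory receptor is CD28. It binds CD80 and CD86 on antigen-presenting cells and recruits phosphatidylinositol 3-kinase, and its relative ICOS, induced by activation, binds ICOS ligand and is known for its part in follicular help. PD-1, the product of Pdcd1, belongs to the same immunoglobulin family but restrains the T cell when bound by PD-L1 or PD-L2. OX40 (Tnfrsf4) and 4-1BB (Tnfrsf9) belong to the tumour necrosis factor receptor family and signal through TRAF adaptors to NF-kappaB. They appear after activation or on regulatory T cells.

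Values are the linear intensities of the authors' value table. The median of all non-control values, 74.9, served as a floor below which a value was treated as not measured. A difference in which 1 of 2 arrays lies below the floor is given as a bound ("at least"). The 4 arrays had median intensities of 69.0 to 77.6. Their log2 intensities correlated at r = 0.93 to 0.94 across probe sets. Of the 8 receptor probe sets, 6 were above the floor on all 4 arrays. The targeted gene was lower in both deficient arrays on all 4 of its probe sets, with 4.91% to 13.5% of the wild-type signal left in CD4 and 17.4% to 26.6% in CD8 T cells, of which the values of 1 probe set below the floor are upper bounds. No defining marker gene of T cells, CD4 T cells or CD8 T cells (12 genes listed) carries a symbol in the files, so the labelled cell types could not be checked by name.

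Membership itself carries information on direction, because the authors' tables hold only probe sets with a ratio beyond 2-fold. The smallest listed increase was 2.002-fold in CD4 and 2.005-fold in CD8. Cd28 and Icos were listed for CD8 T cells alone, Tnfrsf4 for CD4 T cells alone, and Pdcd1 and Tnfrsf9 for both. Their directions in those comparisons are therefore descriptions, and only the differences of Cd28 and Icos in CD4 and of Tnfrsf4 in CD8 T cells lie outside what selected them. Nearest to the limit of the tables were Pdcd1, with a deposited fold of 2.06 in CD4 and 2.11 in CD8, and Icos with 2.17 in CD8.

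**Figure D1:**
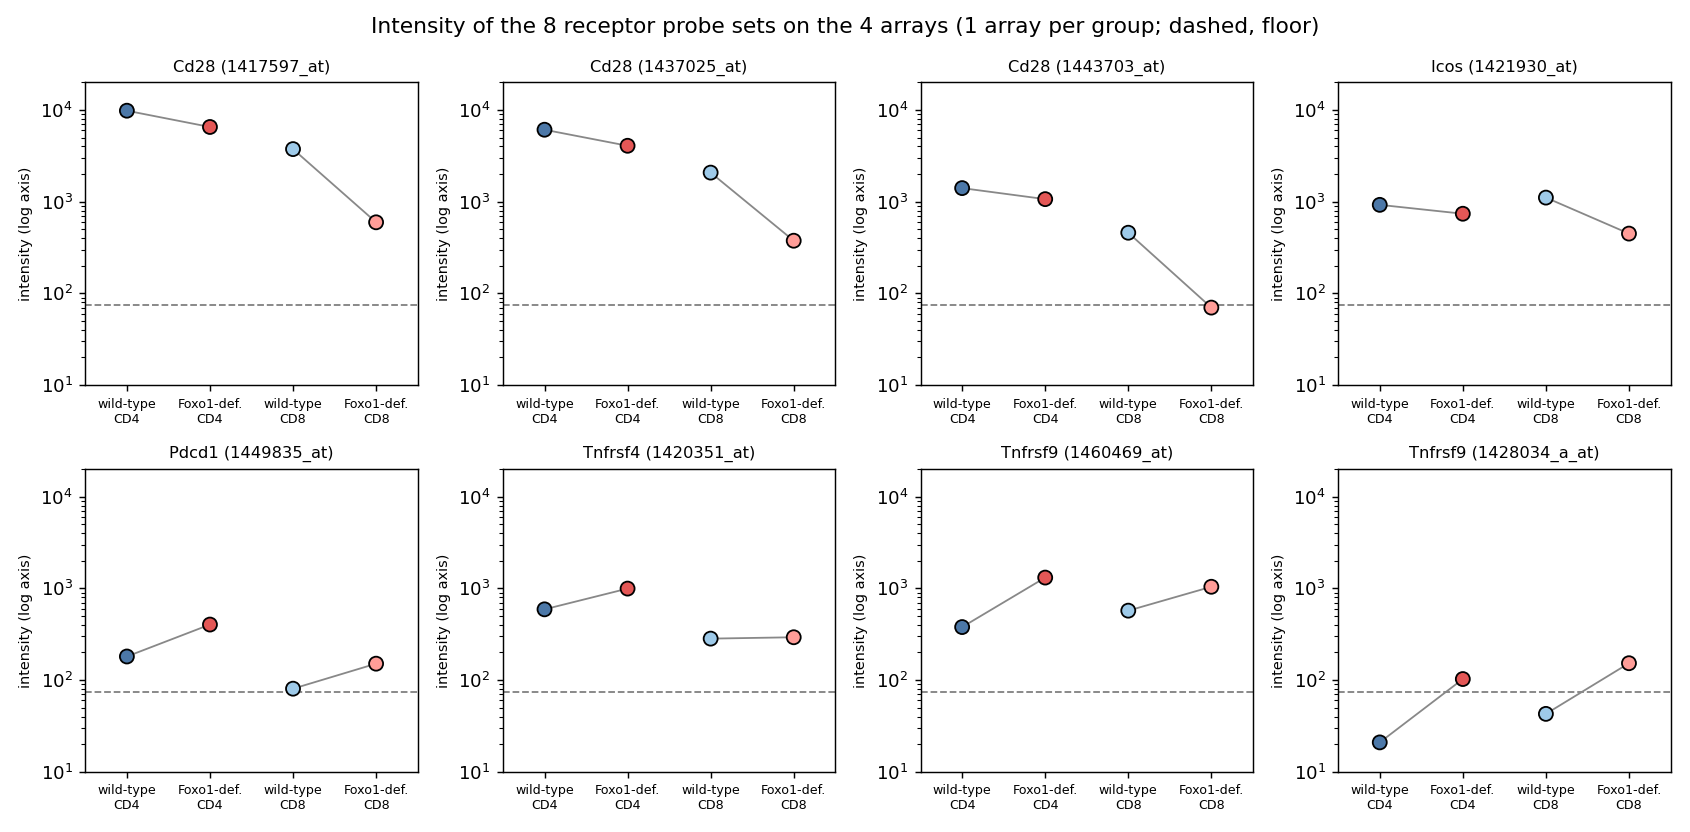
Intensity (log axis) of the 8 probe sets on the 4 arrays, 1 point per array, lines joining the genotypes within a cell type and the dashed line marking the floor of 74.9. All 3 Cd28 probe sets step down from wild-type CD4 to Foxo1-deficient CD8 T cells, Pdcd1 and both Tnfrsf9 probe sets are higher in each deficient array than in its wild-type counterpart, and Tnfrsf4 differs between genotypes mainly in CD4 T cells.

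Without Foxo1, Cd28 was the receptor gene that differed most, and it did so in CD8 T cells. Its brightest probe set (1417597_at) had intensities of 9810.0 in wild-type CD4, 6519 in Foxo1-deficient CD4, 3740.0 in wild-type CD8 and 595 in Foxo1-deficient CD8 T cells. The deficient CD8 array was thus the lowest and the wild-type CD4 array the highest. In CD8 T cells Cd28 was 6.28-fold lower without Foxo1, a log2 difference of -2.65, and in CD4 T cells it was at 66.5% of the wild-type level (-0.59).

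The other Cd28 probe sets ran in the same order of arrays. Probe set 1437025_at had intensities of 6084, 4066, 2072 and 375 in wild-type CD4, deficient CD4, wild-type CD8 and deficient CD8 T cells. Probe set 1443703_at had 1405, 1065, 458 and 69.9 in that order, the last being below the floor. Their CD8 differences were 5.53-fold and at least 6.12-fold lower, and in CD4 T cells they stood at 66.8% and 75.8% of wild-type. Over the 3 probe sets the mean log2 difference was -2.58 ± 0.10 (SD over 3 probe sets, 1 of them a bound, from a single pair of arrays) in CD8 and -0.52 ± 0.11 in CD4. For comparison, probe sets of the same named gene differed with a pooled SD of 0.38 in CD8 and 0.39 in CD4 T cells, over 76 genes each. The SD over the 3 Cd28 probe sets was thus below this pooled SD in both cell types. How often single genes had so small a spread was not examined. All 3 had been listed for a decrease in CD8, and a Cd28 probe set with little change would carry no symbol here. This spread is also technical and says nothing about mice.

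Against all 23803 probe sets compared in CD8 T cells, the 3 Cd28 probe sets stood at positions 19, 20 and 27 counted from the largest decrease, of which position 20 belongs to 1443703_at, ranked by its bound. Among 24070 compared in CD4 T cells, where the gene had not been selected, they stood at positions 1188, 1221 and 2488, in the lowest 4.93% to 10.3% of differences.

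Icos was highest in wild-type CD8 T cells and lowest in Foxo1-deficient CD8 T cells. Its probe set (1421930_at) had an intensity of 1106 in wild-type CD8, 923 in wild-type CD4, 738 in deficient CD4 and 448 in deficient CD8 T cells. It was 2.47-fold lower without Foxo1 in CD8 (log2 -1.30) and 1.25-fold lower in CD4 (log2 -0.32). The CD8 difference stood at position 212 from the lowest of 23803, while the CD4 difference, at position 3358 of 24070, was smaller than the 0.39 spread between probe sets of a gene. Cd28 and Icos lie on mouse chromosome 1 in the RefSeq gene list of GRCm38.p6, with Ctla4 as the one protein-coding gene between them. Ctla4, which encodes the inhibitory counterpart of CD28, carries no symbol in the files and could not be followed.

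Pdcd1, the inhibitory member, was higher without Foxo1 in both cell types. Its probe set (1449835_at) had intensities of 181 in wild-type CD4, 403 in deficient CD4, 80.6 in wild-type CD8 and 151 in deficient CD8 T cells. The wild-type CD8 value was just above the floor. The difference was 2.23-fold in CD4 (log2 1.16, position 221 from the highest) and 1.87-fold in CD8 (log2 0.91, position 454). In the authors' deposited tables the corresponding folds were 2.06 and 2.11.

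Tnfrsf9 was also higher without Foxo1 in both cell types, and most in CD4 T cells. The brighter probe set (1460469_at) had an intensity of 379 in wild-type CD4 and 1311 in deficient CD4 T cells. In CD8 T cells it had 572 in wild-type and 1042 in deficient. The difference was 3.46-fold in CD4 (log2 1.79, position 54 from the highest of 24070) and 1.82-fold in CD8 (log2 0.87, position 522). The dimmer probe set (1428034_a_at) had 20.9 and 103 in the wild-type and deficient CD4 arrays and 42.8 and 153 in the CD8 arrays. Both wild-type values were below the floor, so its differences are bounds, at least 1.37-fold higher in CD4 and at least 2.04-fold higher in CD8, and their order is not known. The authors' deposited tables gave the dimmer probe set 2.26-fold in CD4 and 2.63-fold in CD8, and the brighter one 2.67-fold and 2.23-fold.

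Tnfrsf4 was higher without Foxo1 in CD4 T cells and nearly level in CD8 T cells. Its probe set (1420351_at) had intensities of 591 in wild-type CD4, 995 in deficient CD4, 283 in wild-type CD8 and 293 in deficient CD8 T cells. The CD4 difference was 1.68-fold (log2 0.75, position 866 from the highest of 24070), and the authors' deposited table gave 2.41-fold for the same probe set. In CD8 T cells, where Tnfrsf4 had not been selected, the difference was 1.04-fold (log2 0.05), and 56.4% of the 23803 probe sets compared had a lower one.

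**Figure D2:**
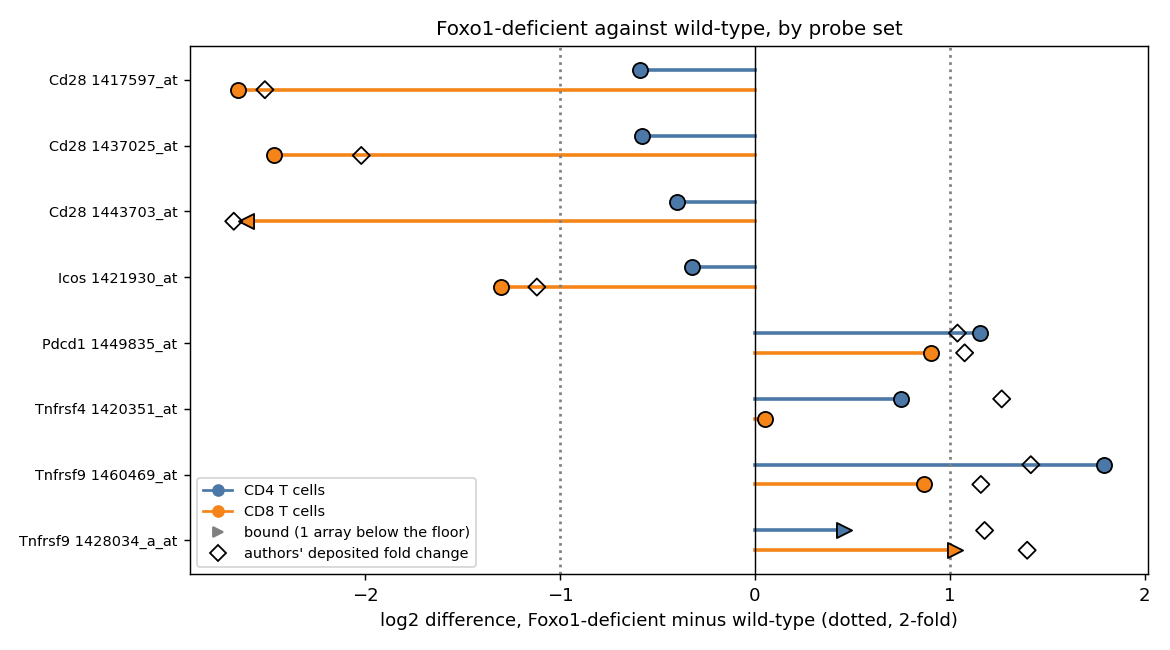
Log2 difference between the Foxo1-deficient and the wild-type array for each probe set, in CD4 (blue) and CD8 T cells (orange), with triangles for bounds, open diamonds for the authors' deposited folds and dotted lines at 2-fold. Cd28 and Icos lie below 0 in both cell types and reach past 2-fold in CD8, whereas Pdcd1, Tnfrsf4 and Tnfrsf9 lie above 0, with Tnfrsf4 at 0.05 in CD8.

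Counted per gene by the brightest probe set, Pdcd1 and Tnfrsf9, 2 of the 5 receptor genes, reached 2-fold higher in CD4 T cells without Foxo1, and 0 reached 2-fold lower. Over all 24070 probe sets compared there, 1.5% reached that size upwards and 1.26% downwards. For CD8 T cells the counts were 0 upwards and 2 downwards (Cd28 and Icos), against 1.47% and 2.04% of 23803. The authors' selection on their own ratios favoured these calls, so nothing is read from the shares. The median log2 difference of the 5 genes was 0.75 in CD4 and 0.05 in CD8, beside 0.017 and -0.0031 over all probe sets compared.

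The CD8 counts moved with the scaling of the arrays. With arrays centred on their medians, Pdcd1 (log2 1.07) and Tnfrsf9 (log2 1.03) passed 2-fold in CD8, and after quantile normalization Pdcd1 did (log2 1.01). Centring also raised the median CD8 difference of all probe sets by 0.15, and turned the overall split from 351 higher and 485 lower to 561 and 330. No receptor gene changed direction under either scaling in the genotype comparisons.

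**Figure D3:**
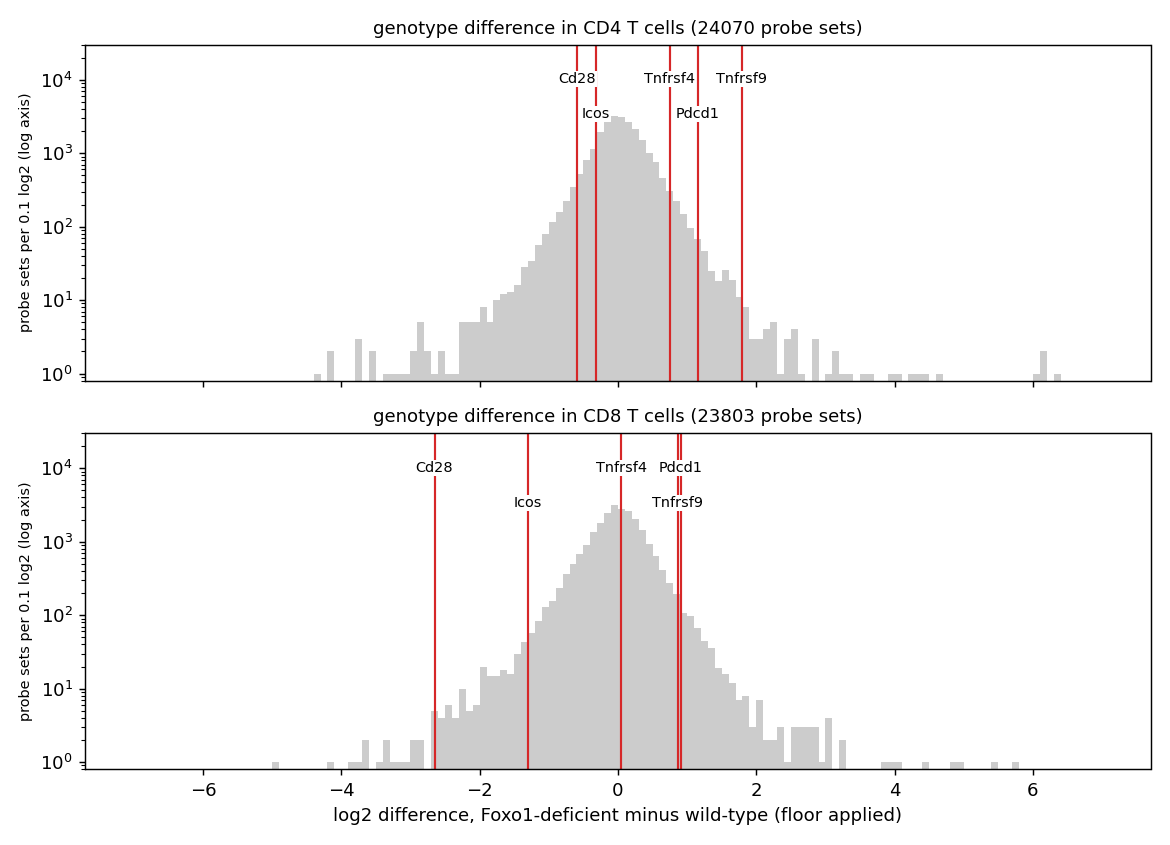
Number of probe sets per 0.1 log2 units (log axis) by their log2 difference between Foxo1-deficient and wild-type arrays, with red lines at the brightest probe set of each receptor gene. In CD4 T cells Tnfrsf9 (1.79) and Pdcd1 (1.16) lie in the upper tail, and in CD8 T cells Cd28 (-2.65) and Icos (-1.30) lie in the lower tail while Tnfrsf4 (0.05) lies at the centre.

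Set against each other, the genotype differences in CD8 were lower on the log2 scale than those in CD4 for all 5 genes, by brightest probe set. For Cd28 the CD8 difference was 4.18-fold below the CD4 one (log2 -2.06), the one receptor gene past 2-fold. For Icos it was 1.97-fold below (-0.98), for Tnfrsf9 1.90-fold (-0.93), for Tnfrsf4 1.63-fold (-0.70) and for Pdcd1 1.19-fold (-0.25). Of 19941 probe sets above the floor on all arrays, 2.94% lay at least 2-fold below and 1.15% at least 2-fold above. The signs were the same after centring and after quantile normalization, where Pdcd1 was at -0.13 and -0.09. In the authors' deposited tables the order for Pdcd1 was the opposite, with log2 ratios of 1.04 in CD4 and 1.08 in CD8, and by the mean of its probe sets Tnfrsf9 was at -0.18. Listing Cd28 and Icos for a decrease in CD8 alone and Tnfrsf4 for an increase in CD4 alone favoured this sign. Nothing is therefore read from its being shared by all 5 genes. These differences were not tested, since a model that holds them has no residual degree of freedom.

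Between the cell types, the wild-type arrays showed Cd28, Pdcd1 and Tnfrsf4 lower in CD8 than in CD4 T cells. Cd28 was 2.62-fold lower on its brightest probe set and 2.94-fold and 3.07-fold lower on the others. Pdcd1 was 2.24-fold lower and Tnfrsf4 2.09-fold lower. Icos (log2 0.26) and the brighter Tnfrsf9 probe set (log2 0.59, 1.51-fold) were instead higher in CD8. In all, 3 of 5 genes reached 2-fold lower in wild-type CD8 T cells and 0 reached 2-fold higher, as did 2.31% and 2.2% of 24371 probe sets.

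In the Foxo1-deficient arrays the cell types stood further apart for the same genes. Cd28 in CD8 was at 9.13% of its CD4 level on its brightest probe set, 10.8-fold lower on 1437025_at and at least 14.2-fold lower on 1443703_at. These stood at positions 7, 9 and 5 from the lowest of 23637 probe sets, the last ranked by its bound, compared with 189, 123 and 109 of 24371 in wild-type. Tnfrsf4 was 3.39-fold and Pdcd1 2.67-fold lower in CD8. Icos was 1.65-fold lower and the brighter Tnfrsf9 probe set 1.26-fold lower in CD8, the opposite direction to wild-type for both. The dimmer Tnfrsf9 probe set was 1.49-fold higher there. Again 3 of 5 genes (Cd28, Pdcd1 and Tnfrsf4) reached 2-fold lower and 0 reached 2-fold higher, as did 2.94% and 1.92% of 23637 probe sets. The cell type comparisons use the same 4 arrays as the genotype comparisons and are no independent view of them. Listing Cd28 and Icos for a decrease in CD8 and Tnfrsf4 for an increase in CD4 favoured lower CD8 values in the deficient arrays. Nothing is therefore read from the wider gap or from these counts.

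**Figure D4:**
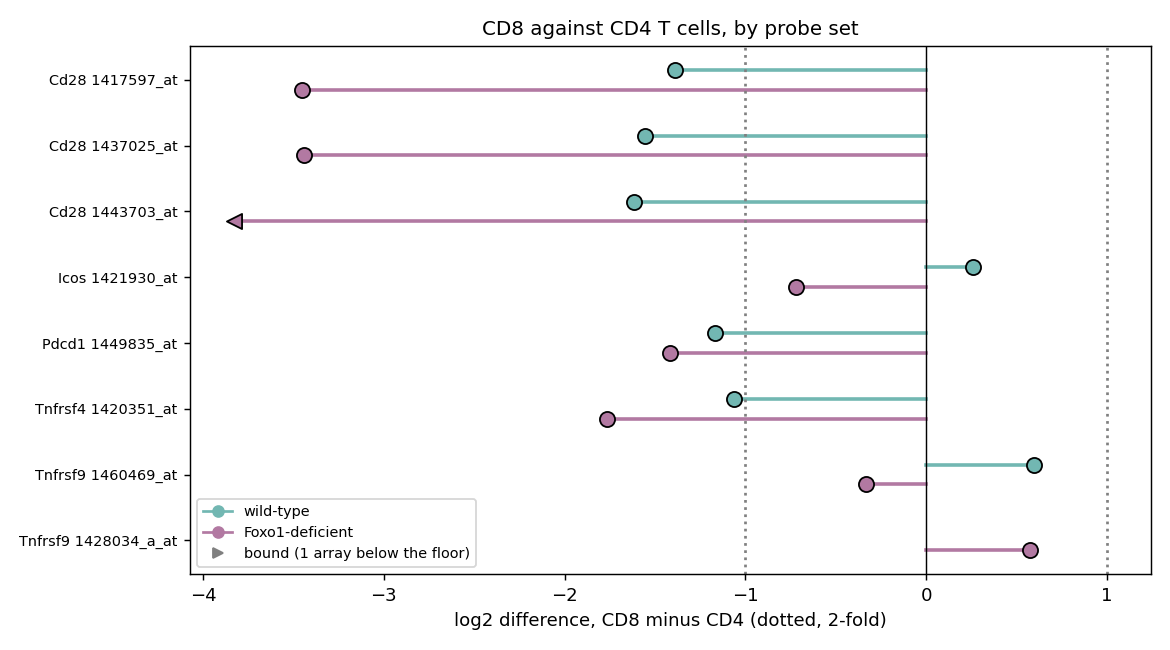
Log2 difference between CD8 and CD4 T cells for each probe set in wild-type (teal) and Foxo1-deficient arrays (purple), with a triangle for a bound and dotted lines at 2-fold. Cd28, Pdcd1 and Tnfrsf4 are lower in CD8 in both genotypes, Icos and the brighter Tnfrsf9 probe set change sides between genotypes, and the dimmer Tnfrsf9 probe set was below the floor in both wild-type arrays and has no wild-type value.

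The one test the design allows is an additive limma model of log2 intensity, in which genotype and cell type each have a term and 1 residual degree of freedom is left. The residual of each probe set is a single contrast among the 4 arrays. Unequal genotype effects in CD4 and CD8 T cells thus cannot be told apart from array noise or from differences between preparations. The model's SE and p-values rest on that residual and on a variance prior drawn from all 25375 probe sets tested. On simulated data of this design its main setting recovered no change of either size tried, so an adjusted p above the threshold at that setting says nothing about a gene. The simulated arrays held no cell type effect and had a common spread for probe sets of like intensity. The genes were also listed for a genotype ratio, so their genotype p-values are descriptions. For the genotype effect shared by both cell types, the fit gave Tnfrsf9 1.33 ± 0.31 (SE, 4 arrays, adjusted p = 0.479) and Pdcd1 1.03 ± 0.17 (adjusted p = 0.468), both higher in 2 of 2 pairs of arrays. Cd28 was at -1.62 ± 0.61 (adjusted p = 0.566) and Icos at -0.81 ± 0.32 (adjusted p = 0.570), both lower in 2 of 2 pairs. Tnfrsf4 was at 0.40 ± 0.25 (adjusted p = 0.664), also higher in 2 of 2 pairs. The listing favoured these directions, in both pairs for Pdcd1 and Tnfrsf9, in the CD8 pair for Cd28 and Icos, and in the CD4 pair for Tnfrsf4. The pair counts are therefore descriptions as well. With limma, 0 of the 8 receptor probe sets had an adjusted p under 0.05, as had 0 of all 25375 tested. At an unadjusted p under 0.05 there were 3 (Pdcd1 and both of Tnfrsf9, all higher), beside 9.4% of all probe sets, from which nothing is read, and the dimmer Tnfrsf9 probe set entered with its wild-type values of 20.9 and 42.8 below the floor. With limma's trended and robust variance prior, the brighter Tnfrsf9 probe set alone of the 8 passed (adjusted p = 0.0375), beside 1.95% of all probe sets, and Pdcd1 had an adjusted p of 0.0972. On simulated data that prior recovered most changes but also called unchanged probe sets.

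For the cell type effect shared by both genotypes, the same limma fit gave 0 of 8 receptor probe sets with an adjusted p under 0.05, as for all 25375. At an unadjusted p under 0.05, 5 were lower in CD8 (all of Cd28, Pdcd1 and Tnfrsf4). Of all 25375 probe sets, 2198 were lower and 1425 higher at that limit, 14.3% together. Cd28 supplies several of the 5, and nothing is read from the count. The dimmer Tnfrsf9 probe set was the 1 higher, but both its wild-type values lie below the floor and are not measured levels. The effects were -2.42 ± 0.61 for Cd28 (SE, 4 arrays, adjusted p = 0.325), -1.41 ± 0.25 for Tnfrsf4 (adjusted p = 0.289) and -1.29 ± 0.17 for Pdcd1 (adjusted p = 0.267). With limma's trended and robust prior Tnfrsf4 (adjusted p = 0.00666) and Pdcd1 (adjusted p = 0.0229) passed, where 4.97% of all probe sets did, with the same limit on that prior. Listing Cd28 and Icos for a decrease in CD8 and Tnfrsf4 for an increase in CD4 favoured lower CD8 values in the deficient arrays. The cell type p-values of the receptors are therefore descriptions too.

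Pdcd1, Tnfrsf4 and Tnfrsf9 are the receptor genes for which a RefSeq promoter window was at hand. All were higher in CD4 T cells without Foxo1, the direction in which the authors had listed them, so nothing is read from it. Windows of 300 bases, from 250 before to 50 after a start site, come from RefSeq on GRCm38.p6 and were matched by symbol for 3 of the 5 genes, Pdcd1, Tnfrsf4 and Tnfrsf9, the last with 2 windows. They were searched on both strands for the forkhead core GTAAACA and, chosen after the windows had been seen, for the shorter TAAACA that it contains. Each is printed 5′ to 3′ along the gene, with any match to the shorter motif in capitals. They are chr1:94052504-94052803 on the minus strand for Pdcd1, chr4:156013445-156013744 on the plus strand for Tnfrsf4 and chr4:150919905-150920204 on the plus strand for Tnfrsf9.
Pdcd1: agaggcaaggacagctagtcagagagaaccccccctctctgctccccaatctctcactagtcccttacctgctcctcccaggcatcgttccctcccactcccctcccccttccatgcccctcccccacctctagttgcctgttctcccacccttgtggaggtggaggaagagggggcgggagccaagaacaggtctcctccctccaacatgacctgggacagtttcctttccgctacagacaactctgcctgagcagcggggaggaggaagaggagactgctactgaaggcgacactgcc
Tnfrsf4: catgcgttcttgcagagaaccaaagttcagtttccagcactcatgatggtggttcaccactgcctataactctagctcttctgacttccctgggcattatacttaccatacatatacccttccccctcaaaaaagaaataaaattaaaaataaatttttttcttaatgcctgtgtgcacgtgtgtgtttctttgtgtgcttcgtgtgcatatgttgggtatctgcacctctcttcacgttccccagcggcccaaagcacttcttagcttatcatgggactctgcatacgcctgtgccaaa
Tnfrsf9: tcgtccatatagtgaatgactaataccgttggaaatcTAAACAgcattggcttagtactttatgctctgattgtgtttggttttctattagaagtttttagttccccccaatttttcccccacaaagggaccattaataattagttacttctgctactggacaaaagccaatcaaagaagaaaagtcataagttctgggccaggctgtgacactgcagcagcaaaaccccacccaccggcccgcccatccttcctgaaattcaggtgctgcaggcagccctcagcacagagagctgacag
None of the 4 windows holds GTAAACA on either strand, which 3.65% of all 32851 RefSeq promoter windows do. The printed Tnfrsf9 window holds 1 TAAACA, beginning at -213 from the start site, and the other 3 windows hold none. Of all windows 13.4% hold it. By base composition the Pdcd1 window is 60.7% G or C, the Tnfrsf4 window 43.7% and the printed Tnfrsf9 window 45.3%. A match describes letters and is not a binding site.

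Among the members themselves, Pdcd1 and Tnfrsf4 had the most similar pattern. Their log2 intensities, each centred on its mean over the 4 arrays, lay a Euclidean distance of 0.68 apart (r = 0.91 over 4 arrays). Cd28 and Tnfrsf9 lay furthest apart (3.94, r = -0.46), and Cd28 and Icos were 2.40 apart (r = 0.79). With 4 points that share arrays, these values only describe.

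Of the 503 named genes with a value above the floor, those nearest to Cd28 were Cyp2s1 (distance 0.57), A530021J07Rik (0.75) and Trat1 (0.78), which encodes an adaptor associated with the T cell receptor. Cyp2s1 and A530021J07Rik were below the floor in deficient CD8 T cells, at 25.7 and 38.5. The floor was not applied to these distances, so the places of both genes ahead of Trat1 rest on values that are not measured levels. Trat1 was above the floor on all 4 arrays. Trat1 had intensities of 3901 in wild-type CD4, 1495 in deficient CD4, 949 in wild-type CD8 and 255 in deficient CD8 T cells. Nearest to Icos were Paqr8 (0.079), Cab39l (0.20) and Trip12 (0.24), and nearest to Pdcd1 were Amigo2 (0.13), the adenylyl cyclase gene Adcy6 (0.19) and the profilin gene Pfn2 (0.27). Amigo2 had intensities of 1194 and 2660.3 in the CD4 arrays and 479 and 981 in the CD8 arrays, wild-type first. Nearest to Tnfrsf4 were the activation-induced nuclear receptor gene Nr4a3 (0.41), Mpp6 (0.45) and LOC668215 (0.48), and nearest to Tnfrsf9 were the aquaporin gene Aqp9 (0.050) and Rsrp1 (0.34). Pearson's r over the 4 arrays was 0.96 for Mpp6, the lowest of these pairs, and all the genes compared had been listed by the authors for a change.

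**Figure D5:**
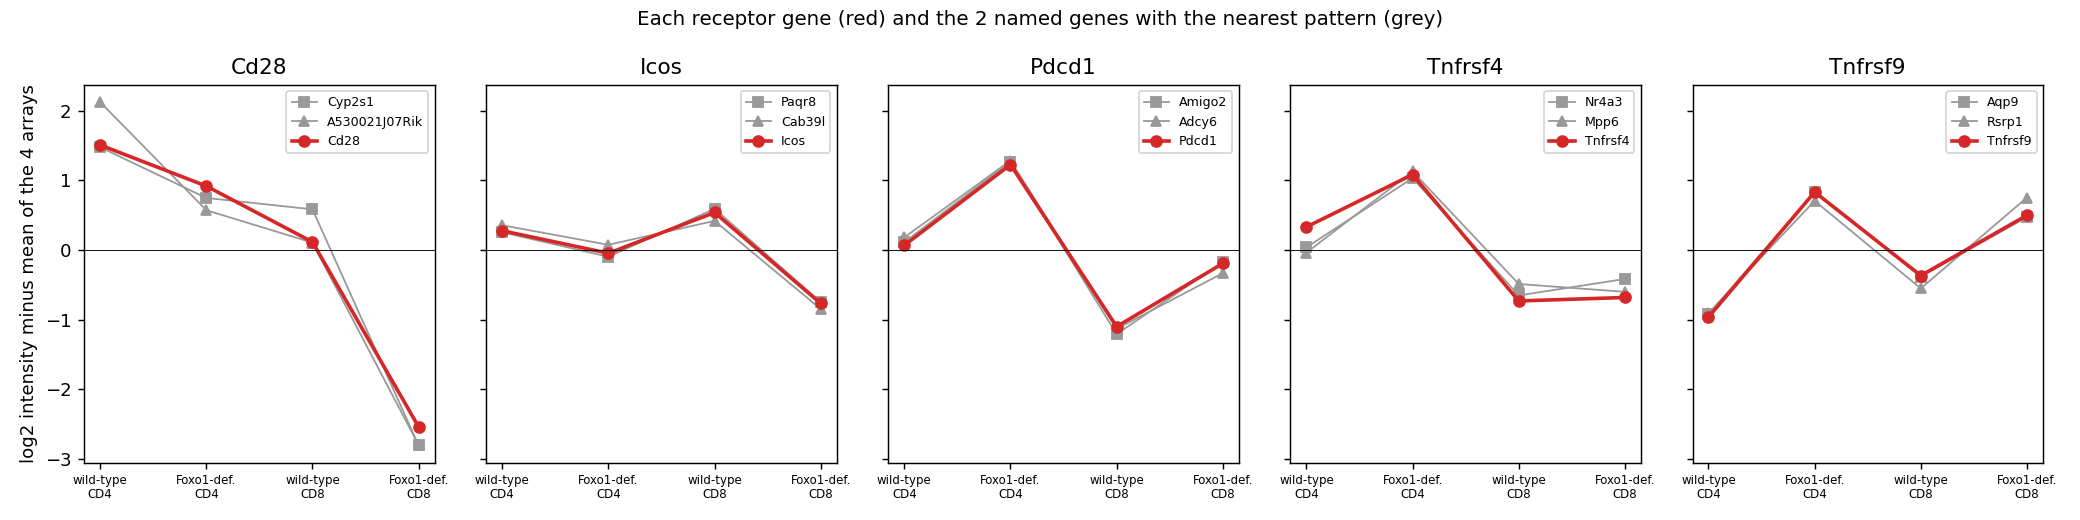
Log2 intensity minus its mean over the 4 arrays for each receptor gene (red) and the 2 named genes nearest to it (grey). The pattern of Tnfrsf9 is followed by Aqp9 within a distance of 0.050, while the nearest gene to Cd28, Cyp2s1, is 0.57 away. The floor was not applied here, and Cyp2s1 and A530021J07Rik, drawn with Cd28, lie below it in deficient CD8 T cells.

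Other genes of these pathways could be followed only where the authors' tables name them. Of the 7 ligand genes listed, Cd274 alone is named. It encodes PD-L1, the ligand of PD-1, and had intensities of 685 and 1423 in wild-type and deficient CD4 T cells and 760.4 and 2091 in CD8 T cells, 2.08-fold and 2.75-fold higher without Foxo1. Receptor and ligand of this inhibitory pair were thus both higher in both deficient arrays. The authors had listed both genes in both cell types, so nothing is read from their shared direction. Of 15 other costimulatory receptor genes 1 is named (Slamf6, at least 2-fold lower in both cell types), and of 13 other inhibitory receptor genes 2 are. Cd160, an inhibitory receptor of cytotoxic cells, had intensities of 61.4 and 79.5 in the CD4 arrays and 591 and 2862 in the CD8 arrays, wild-type first, which was 4.85-fold higher in CD8 without Foxo1. Its wild-type CD4 value was below the floor. Klrd1, the CD94 gene, was lower by log2 differences of -3.79 in CD4 and -2.15 in CD8.

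Genes that act below the receptors differed in both directions. Pik3cd, a catalytic subunit of phosphatidylinositol 3-kinase, was 3.11-fold lower in deficient CD8 T cells (intensity 1840.4 to 591) and had 607 and 623 in the CD4 arrays. Relb, an NF-kappaB subunit, was 1.86-fold higher in CD4 (547 to 1016) and 2.61-fold in CD8 (569 to 1485). Nfkbia, the inhibitor that NF-kappaB itself induces, was 1.79-fold and 1.89-fold higher. Sh2d1a, which encodes the SLAM adaptor SAP, was 1.83-fold lower in CD4 and 2.12-fold lower in CD8.

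Of 19 genes induced by costimulated activation, 7 are named. Of 6 compared in CD4 and 7 in CD8 T cells, 3 in each passed 2-fold upwards and 0 downwards, with median log2 differences of 1.10 and 0.95, beside 1.5% and 1.47% of all probe sets upwards. A gene has a symbol only where the authors listed it, so these genes were selected for a difference and nothing is read from the counts. Map3k8, which encodes a kinase, had intensities of 68.1 and 449 in the CD4 arrays and 187 and 797 in the CD8 arrays, wild-type first. Its wild-type CD4 value was below the floor, so the CD4 difference is a bound, at least 5.99-fold higher. The activation marker gene Cd83 had 91.9 and 211 in CD4 and 174 and 312 in CD8. Irf8 and Nr4a1, both transcription factor genes, were higher by log2 differences of 2.25 and 0.92 in CD4 and 2.66 and 1.27 in CD8. Of 10 follicular helper genes 6 are named, and past 2-fold were 2 upwards and 1 downwards in CD4 and 2 upwards and 3 downwards in CD8 T cells, beside 1.5% and 1.26% of all probe sets in CD4 and 1.47% and 2.04% in CD8, under the same selection.

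Markers of other cells and states moved beside these receptors, and their part in the differences was not tested. Of 6 regulatory T cell markers 3 are named (Foxp3, Ikzf2 and Nrp1), with summed intensities of 712 in wild-type CD4, 1504 in deficient CD4, 1242 in wild-type CD8 and 3990 in deficient CD8 T cells. Ikzf2 made up most of the deficient sums (1292 in CD4 and 3896 in CD8). Nrp1 went from 347 to 59.3, below the floor, in CD4, and Foxp3 was above the floor in the deficient CD4 array alone (152). Of 12 B and plasma cell markers 5 are named, with sums of 1259 and 4012 in the CD4 arrays and 1013 and 5662 in the CD8 arrays, wild-type first. Of 8 markers of activated or memory T cells 7 are named, with sums of 11542 and 17283 in CD4 and 6437 and 22709 in CD8. Ly6a made up most of each sum. Cd44 alone of them was lower in deficient CD4 (1008 to 785), and it was higher in deficient CD8 T cells (161 to 324). Past 2-fold upwards, bounds included, were 4 of the 7 in CD4 and 6 in CD8, and 0 downwards, beside 1.5% and 1.47% of all probe sets upwards. These genes have a symbol only where the authors listed them, so nothing is read from the counts. Of 6 NK cell markers 3 are named, with sums of 439 and 1057 in CD4 and 11387 and 14530 in CD8. The CD8 sums were mostly Nkg7 (9924 and 9919.6), beside Gzma at 113 and 2428. Of 8 myeloid markers Lyz2 alone is named, at 152 and 165 in CD4 and 46.6 (below the floor) and 138 in CD8. The sums include values below the floor, which are not measured levels, among them Tbx21 (8.65), Gzmb (11.1) and Ccl5 (27.3) in wild-type CD4 T cells.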

How the data were processed

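RNA from 1 sample per group was hybridised to Affymetrix arrays after biotin labelling, per the labels' protocols. The authors deposited a table of linear intensities, 1 per probe set and array, whose summarisation, background correction and scaling were not stated by any source used here. For each cell type the authors also deposited a fold table, holding the ratio of the knockout to the wild-type value and both intensities, which are raw per the file headers and differ from the value table. Its header names sit 1 column to the left of the values, in the order that the ratio bears out. Array number limits the precision.

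Here 64 control probe sets were left out and intensities put on the log2 scale, with the floor at percentile 50 and a threshold of 2-fold. A gene was counted by its brightest named probe set, and all probe sets of a receptor are given. RefSeq synonyms that belong to 1 gene updated 56 symbols. limma 3.58.1 in R 4.3.3 was fitted to 25375 probe sets that reached the floor on 1 or more arrays, with two-sided p-values adjusted by Benjamini-Hochberg, and was tested on simulated data. Other steps used Python 3.11.15, numpy 2.4.6, pandas 2.3.3 and matplotlib 3.10.9. The receptors, gene lists and tests were chosen with earlier results of these data known. Named are the receptors, Foxo1, members of the lists with a symbol (4 with the largest differences where more than 6 have a symbol) and the 3 nearest patterns per receptor, of which some results are not reported here. Protein sequences were not used here. Alternatives changed the floor, the scaling, the summary over probe sets, the threshold, the source of the intensities, and limma's prior, filter, covariate and threshold.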

Additional observations from a re-analysis of the deposited data

Results flagged for a closer look

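The difference between CD8 and CD4 T cells ran in opposite directions in the 2 genotypes for 2 receptor probe sets. For Icos the log2 difference was 0.26 in wild-type and -0.72 in Foxo1-deficient arrays, a change of -0.98. For the brighter Tnfrsf9 probe set it was 0.59 and -0.33, a change of -0.93, while the dimmer one had no wild-type value. In each case the smaller difference lies within the SD between probe sets of a gene, which is 0.33 in wild-type (Icos at 0.26) and 0.38 in deficient arrays (Tnfrsf9 at -0.33). Listing Icos for a decrease in CD8 alone favoured its change. With 1 array per group neither change was tested.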

How the results depend on the processing

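With a floor at the 75th percentile, 1 receptor gene was at least 2-fold higher in deficient CD4 T cells in place of 2, and 1 was lower in wild-type CD8 than CD4 in place of 3, because fewer values lie above it. The number at least 2-fold higher in deficient CD8 T cells, 0 in the main setting, was 2 with centring on array medians, 1 after quantile normalization and 2 in the authors' deposited table. With a threshold of 3-fold, 1 was higher in CD4, 1 lower in CD8 and 0 lower in wild-type CD8 than CD4. With 1.5-fold, 1 was lower in CD4, 2 higher in CD8 and 1 higher in wild-type CD8 than CD4. With limma's trended and robust prior, 1 receptor probe set passed for genotype and 2 for cell type, in place of 0, and the cause was not tested. Of 142 other values of single genes under these alternatives, 136 moved by less than the spread between probe sets of a gene, 6 moved by more, and none that had reached 2-fold changed sign. The 6 were Tnfrsf4 (in CD4 by the authors' deposited table, and in both cell type comparisons with the 75th percentile floor) and Tnfrsf9 by the mean of its probe sets, where its log2 difference in CD4 was 1.12, that between deficient CD8 and CD4 turned from -0.33 to 0.12 and the change between the genotypes was -0.18. No paired analysis was possible because 1 array per group leaves no replicate numbers to pair, beyond the cell type term that the limma model already holds. Single arrays give no spread between mice, values near the floor are imprecise, and genes without a symbol could not be followed.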
